A study of Mus musculus with 2 samples.

Results

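The 43 genes described here build the transport machinery and the gate of the primary cilium. They comprise subunits of the intraflagellar transport (IFT) particles B and A, the BBSome and its recruiting GTPase, a pair of chaperonin-like BBS proteins, GTPases and cargo or lipid regulators of the ciliary membrane, and proteins of the transition zone and the centriole beneath it. They were chosen by symbol, as every gene row whose mouse symbol is Ift or Bbs followed by a number plus a fixed list of named partners. All 43 symbols were found among the 43346 gene rows. Total RNA was sequenced from neural tube of strain B6NCrl mouse embryos at embryonic day 14.5, in 1 group of 2 libraries with no treatment and no altered allele named. Replicate 2 came from a pup of the pregnant female numbered 2 and replicate 1 from a pup of the female numbered 1. The labels describe each sample as 1 neural tube and also give the sex as pooled male and female. Each library was made from 10 ng of RNA. The design holds no second condition, so the values below describe levels, the agreement of the 2 libraries and the place of these genes among all others, and no test of a condition was possible.

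The primary cilium is a single, non-motile projection of the cell surface that grows from the mother centriole. IFT-B particles carry cargo towards the tip with kinesin-2, IFT-A particles return it with cytoplasmic dynein-2 and also bring membrane receptors in, and the BBSome rides with both and removes membrane proteins from the cilium. The transition zone at the base limits which proteins enter. In the neural tube the cilium is where Hedgehog signal is read, and in mouse embryos many IFT and transition zone mutants have abnormal ventral patterning.

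Summed over gene rows, the libraries held 25428747 counts in replicate 2 and 32255363 counts in replicate 1. Markers fit the label in both libraries: all 10 neuronal genes and 9 of 10 progenitor genes reached a level of 1 TPM, a length-corrected share of all transcripts, the exception being Sox1 at 0.76 TPM in replicate 2 and 0.83 TPM in replicate 1. Replicate 2 stood apart in markers of meninges and fibroblasts, dorsal root ganglia and endothelium. Its 10 meningeal and fibroblast genes summed to 1064 TPM, against 57.7 TPM in replicate 1, with a median ratio of 18.5. Its 9 dorsal root ganglion genes summed to 425 TPM, against 67.5 TPM in replicate 1, with a median ratio of 30.8. Of these sums, Prph alone made up 239 TPM in replicate 2 and 53.25 TPM in replicate 1. Its 9 endothelial genes summed to 262 TPM, against 120.5 TPM in replicate 1. No gene of these lists was at 0 in either library. The part of these cells in the ratios below was not tested, and in such bulk tissue fewer cells of a type and less RNA per cell cannot be told apart.

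All 43 cilium genes were expressed at 1 TPM or more in both libraries. Among 21474 protein-coding gene rows, 13047 (60.8%) met the same limit. The members' median was 17.7 TPM in replicate 2 and 17.2 TPM in replicate 1 (SD of these medians 0.37, n = 2). The median of the members' mean TPM was 16.9. The median of the 13047 expressed protein-coding genes was 22.1 TPM in replicate 2 and 20.2 TPM in replicate 1, and 18 of the 43 members lay above the median of those genes' means. Mean levels spanned 47.1-fold, with 6 members at 50 TPM or more, 25 between 10 and 50 TPM and 12 under 10 TPM. The order of the members is coarse, because only 12 of the 42 pairs of neighbours in it had libraries that did not overlap. Expected counts per member ranged from 127 to 10232 in a library, so no member rested on a handful of reads.

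**Figure D1:**
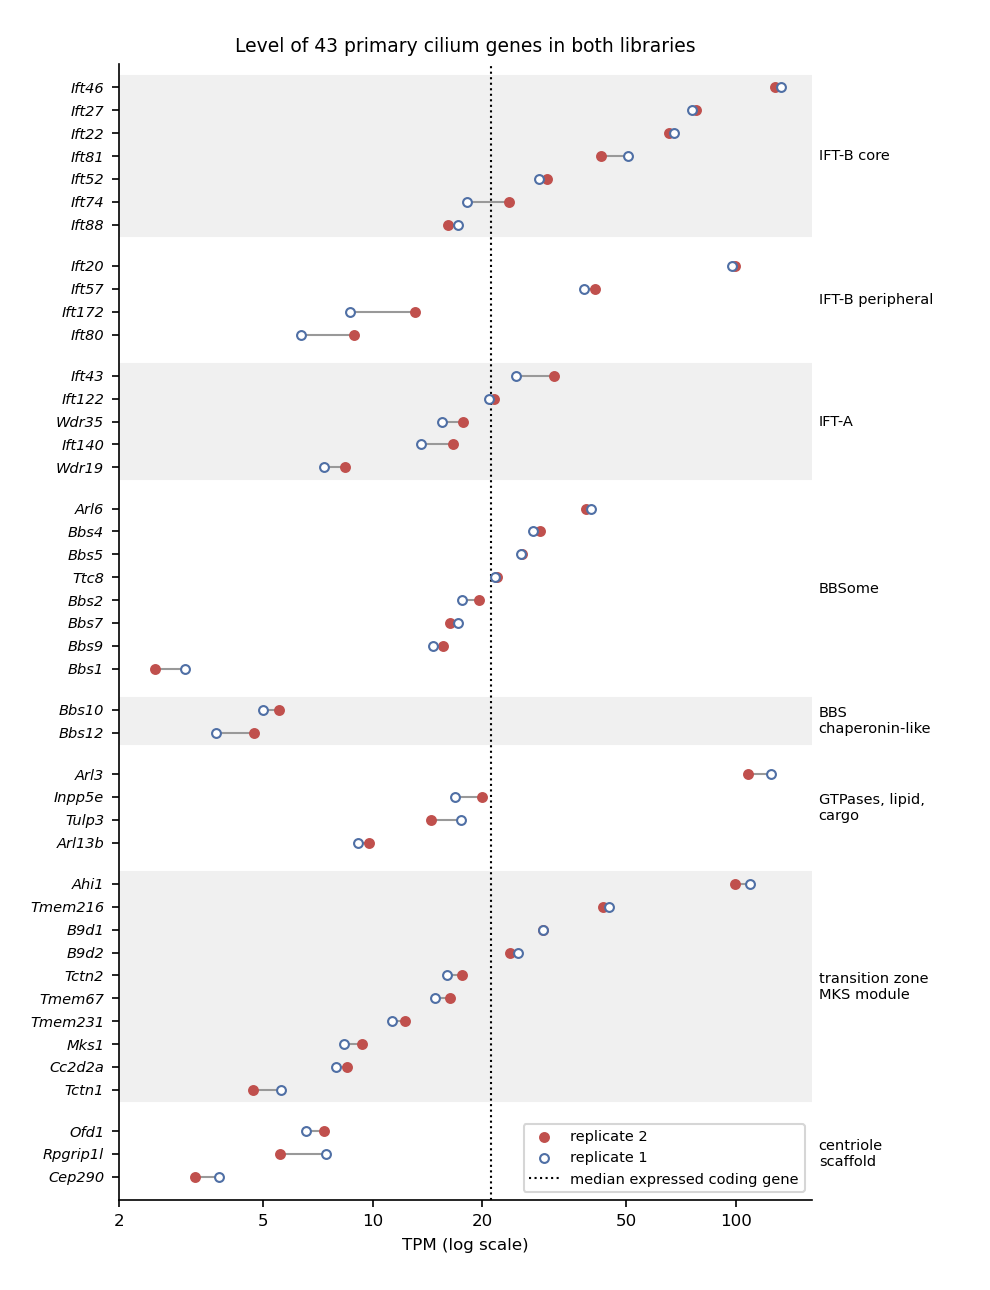
TPM (log scale) of each of the 43 genes, by class, in replicate 2 (filled) and replicate 1 (open), with the median of expressed protein-coding genes dotted at 21.2 TPM. The 2 libraries lie close together for most genes, while genes of a single class differ up to 20.3-fold.

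The promoters of these genes were searched for the X-box, the site that RFX transcription factors bind and that was first tied to ciliary genes in Caenorhabditis elegans. The windows run from 250 bases before to 50 bases after a RefSeq start (GRCm38.p6), called the gene start in this search. A gene with more than 1 such start can have more than 1 window, and a match in any window was counted. The shares below do not allow for the number of windows per gene. RefSeq starts can differ from the GENCODE gene starts behind the gene coordinates given elsewhere, as for Ift57. The pattern was GTNNCC, a gap of 1 to 3 bases, then GGNNAC, which reads the same on both strands. Of the 39 members with a window, 12 held a full match (30.8%). The same pattern stood in 5.15% of 10198 expressed protein-coding genes and in 1082 of all 27025 genes with a window. Ift81, Ift122, Ift80 and Tmem67 had no window. Of the 14 matches, 13 had a gap of 2 bases and 1 had a gap of 1 base. By class, 6 matched genes were in the MKS module of the transition zone (Ahi1, Mks1, Tctn1, Tctn2, Tmem216, Tmem231), 3 in the BBSome (Bbs1, Bbs4, Bbs7), 1 in the IFT-B core (Ift22), 1 in peripheral IFT-B (Ift57) and 1 in IFT-A (Wdr19). The search fixed 8 letters of the pattern, so likeness among the matched arms follows from the search. The matches before the gene start, except the second of Ift22, are printed on the gene's strand with the match in capitals. Each has 20 bases on each side where these stay before the start:

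Bbs7, chr3:36613477-36613530: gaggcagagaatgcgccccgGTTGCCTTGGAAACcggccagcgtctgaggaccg

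Ift22, chr5:136908067-136908120: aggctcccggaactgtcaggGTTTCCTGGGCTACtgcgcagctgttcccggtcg

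Ift57, chr16:49699187-49699240: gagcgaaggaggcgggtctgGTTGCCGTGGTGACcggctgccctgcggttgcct

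Ift57, chr16:49699214-49699266: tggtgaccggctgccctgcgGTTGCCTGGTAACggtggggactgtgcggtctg

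Mks1, chr11:87853171-87853214: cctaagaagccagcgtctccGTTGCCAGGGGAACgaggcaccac

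Tctn2, chr5:124598667-124598720: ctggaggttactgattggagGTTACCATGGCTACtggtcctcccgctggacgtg

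Wdr19, chr5:65199642-65199695: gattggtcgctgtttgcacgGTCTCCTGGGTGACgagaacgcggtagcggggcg

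The first Ift22 match is followed after 16 bases by another, not printed, which with its flanks spans chr5:136908097-136908149. The pair of Ift57 matches is 13 bases apart. In the other 6 genes the match lies after the annotated start. The matched bases alone are given for them:

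Ahi1, chr10:20952568-20952581: GTTACCTAGGCAAC

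Bbs1, chr19:4906613-4906626: GTTGCCAAGGCGAC

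Bbs4, chr9:59353472-59353485: GTCGCCCGGGAAAC

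Tctn1, chr5:122264411-122264424: GTTGCCCGGGCAAC

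Tmem216, chr19:10555731-10555744: GTTTCCATGGGGAC

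Tmem231, chr8:111933789-111933802: GTTGCCGTGGAGAC

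The arm GTTGCC, with its reverse complement GGCAAC, was also counted alone and overlaps the full pattern. It stood in 17 of the 39 windows (43.6%), against 15.0% of expressed protein-coding genes and 14.1% of all genes. In the 250 bases before the start alone, 6 members held the full pattern (15.4%), against 4.26% of expressed protein-coding genes. The median level of members with a full match was 17.0 TPM in replicate 2 and 16.6 TPM in replicate 1. That of the other 27 members with a window was 19.7 TPM in replicate 2 and 17.5 TPM in replicate 1, so the match did not go with a higher level. A match of letters does not show that a factor binds there. Of the RFX genes, Rfx3 had 24.7 TPM in replicate 2 and 28.8 TPM in replicate 1, and Rfx7 had 22.4 TPM in replicate 2 and 23.6 TPM in replicate 1.

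The IFT-B core was the most abundant of the larger classes, with a median mean level of 46.4 TPM over 7 genes. Ift46 (chr9:44767908-44793447), a core subunit, was the highest of all members, with 128 TPM in replicate 2 and 133 TPM in replicate 1. Ift27 (chr15:78159463-78174107), a small Rab-like GTPase that links the particle to the BBSome, had 77.6 TPM in replicate 2 and 75.6 TPM in replicate 1. Ift22, another Rab-like GTPase, followed at 65.6 TPM in replicate 2 and 67.5 TPM in replicate 1. Ift88, the subunit mutated in the Tg737 mouse and widely used as a ciliary marker, was the lowest of the core, with 16.1 TPM in replicate 2 and 17.1 TPM in replicate 1. Ift74 and Ift81 form a pair that binds tubulin, and Ift81 lay above Ift74 in each library. Ift81 had 42.5 TPM in replicate 2 and 50.4 TPM in replicate 1. Ift74 had 23.8 TPM in replicate 2 and 18.2 TPM in replicate 1.

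Peripheral IFT-B genes covered a wide range of 13.0-fold. Ift20, which also sits at the Golgi and sorts membrane cargo bound for the cilium, had 99.5 TPM in replicate 2 and 97.95 TPM in replicate 1. Ift57 had 41.1 TPM in replicate 2 and 38.2 TPM in replicate 1. Ift172 and Ift80, also peripheral subunits, were the low members of the class and were both higher in replicate 2. Ift172 had 13.1 TPM in replicate 2 and 8.66 TPM in replicate 1. Ift80 had 8.87 TPM in replicate 2 and 6.37 TPM in replicate 1.

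IFT-A genes were lower and closer to each other, within 3.59-fold. Ift43, the smallest subunit, had 31.6 TPM in replicate 2 and 24.9 TPM in replicate 1. Ift122, a core subunit, had 21.6 TPM in replicate 2 and 20.9 TPM in replicate 1. The lowest was Wdr19, a core subunit, with 8.38 TPM in replicate 2 and 7.35 TPM in replicate 1. All 5 IFT-A members had a higher TPM in replicate 2 than in replicate 1. Ttc21b, an IFT-A subunit that is not among the members, went the other way, with 14.17 TPM in replicate 2 and 15.25 TPM in replicate 1.

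BBSome genes had mean levels between 15.2 and 39.3 TPM, with Bbs1 far below. Arl6, the GTPase that recruits the BBSome to membranes, had 38.6 TPM in replicate 2 and 39.98 TPM in replicate 1. Bbs4 had 28.9 TPM in replicate 2 and 27.7 TPM in replicate 1. Bbs1, the subunit that Arl6 binds, was the lowest of all 43 members, with 2.51 TPM in replicate 2 and 3.04 TPM in replicate 1. It was thus 14.2-fold below Arl6 by mean TPM, and its libraries did not overlap those of any other member. The chaperonin-like genes Bbs10 and Bbs12, whose products help the BBSome assemble, were also low. Bbs10 had 5.54 TPM in replicate 2 and 4.98 TPM in replicate 1. Bbs12 had 4.70 TPM in replicate 2 and 3.70 TPM in replicate 1.

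Among regulators of the ciliary membrane, Arl3 (chr19:46531096-46573198) stood out, with 108 TPM in replicate 2 and 125 TPM in replicate 1. Its GTPase releases lipid-modified cargo inside the cilium. Inpp5e, the phosphatase that sets the lipid make-up of the ciliary membrane, had 20 TPM in replicate 2 and 16.9 TPM in replicate 1. Tulp3, which brings receptors in with IFT-A, had 14.5 TPM in replicate 2 and 17.5 TPM in replicate 1. Arl13b, the exchange factor that activates Arl3, was the lowest of the class, with 9.80 TPM in replicate 2 and 9.12 TPM in replicate 1. By mean TPM it was 12.3-fold below its substrate.

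Transition zone genes were led by Ahi1 (chr10:20952547-21080429), which encodes jouberin. It had 99.3 TPM in replicate 2 and 109.5 TPM in replicate 1, and its 6435 counts in replicate 2 and 10232 counts in replicate 1 were the most of any member. Tmem216, a membrane protein of the MKS module, had 43.2 TPM in replicate 2 and 44.9 TPM in replicate 1. Tctn1, a tectonic, was the lowest of this module, with 4.68 TPM in replicate 2 and 5.60 TPM in replicate 1. The scaffold genes were all low. Ofd1, a protein of the distal centriole, had 7.35 TPM in replicate 2 and 6.57 TPM in replicate 1. Rpgrip1l, which anchors other transition zone proteins, had 5.56 TPM in replicate 2 and 7.45 TPM in replicate 1. Cep290, which bridges microtubules and membrane in the transition zone, had 3.24 TPM in replicate 2 and 3.77 TPM in replicate 1.

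TPM levels of the members followed transcript length. Over the 43 genes, Spearman's rho between mean TPM and the longest transcript was -0.61, against -0.16 over the expressed protein-coding genes. These are descriptions across genes, which share libraries and are not replicates. The 10 members whose longest transcript is under 2000 bases had a median of 41.7 TPM, with a range from 24.5 to 117 TPM. The 33 longer ones had a median of 15.6 TPM, with a range from 2.78 to 131 TPM. In expected counts, which are not divided by length, rho was -0.0017 for the members and 0.21 for the expressed genes. Cep290, with a longest transcript of 8006 bases, had 384 counts in replicate 2 and 604 counts in replicate 1 and a mean level of 3.51 TPM. Ift43, whose longest transcript has 775 bases, had 320 counts in replicate 2 and 341 counts in replicate 1 and a mean level of 28.3 TPM. Ahi1 was high on both scales despite a longest transcript of 4850 bases.

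**Figure D2:**
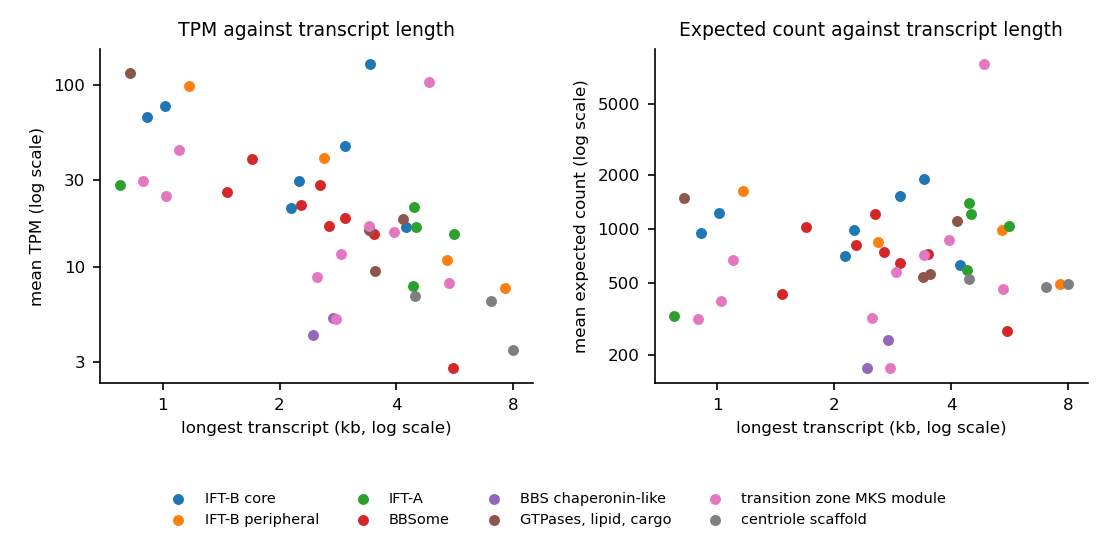
Mean TPM (left) and mean expected count (right) against the longest transcript in kilobases, all axes log, with 1 point a gene coloured by class. TPM falls with length (rho -0.61) while counts show no slope (rho -0.0017), and Ahi1 is the high point among long genes in both panels.

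The libraries were compared by the ratio of replicate 2 to replicate 1 in expected counts, scaled by the trimmed mean of M values (TMM). None of the 43 members was 1.5-fold or more apart in either direction. Of all 17623 genes that averaged 10 counts or more, 10.7% passed that limit with replicate 2 higher and 8.53% with replicate 1 higher. Of the 12894 genes that averaged 100 counts or more, as all members do, 6.86% passed it with replicate 2 higher and 3.23% with replicate 1 higher. The members' median log2 ratio was -0.02, against 0.0033 over these 12894 genes. Their median absolute log2 ratio was 0.13, against 0.17 over the same genes. The ratios ran from 0.759 for Tctn1 to 1.42 for Ift172, with 18 members above 1 and 25 below. The direction and the count of 0 depend on the scaling. With deposited TPM, 28 members lay above 1 and 15 below, and 1 passed 1.5-fold. With spike-in totals all 43 lay above 1 and 17 passed 1.5-fold, a scaling that raised the members' log2 ratios by a median of 0.55. The shares of all genes given above hold for TMM only. They were not computed with deposited TPM or spike-in totals, so the counts of 1 and 17 have no background beside them.

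Counting error alone covers a ratio of 1 for 27 members. The 95% exact counting interval lay above 1 for 6 members and below 1 for 10. Of the 12894 genes averaging 100 counts or more, it lay above 1 for 32.1% and below 1 for 29.4%. Ift172 had 1041 counts in replicate 2 and 931 counts in replicate 1, a ratio of 1.42 (interval 1.29 to 1.55). Ift80 had a ratio of 1.31 (1.15 to 1.49) and Ift74 of 1.26 (1.14 to 1.41). The other members above 1 were Ift43, Ift140 and Bbs9. Ahi1 had a ratio of 0.796 (0.772 to 0.822), the narrowest interval of the set, and Arl3 of 0.808 (0.750 to 0.870). Bbs5 had 335 counts in replicate 2 and 544 counts in replicate 1, a ratio of 0.780 (0.679 to 0.895). Tctn1, Bbs1, Cep290, Tulp3, Ift22, Ift46 and Tmem216 were the other members with intervals below 1. By class, all 5 IFT-A members had a ratio above 1, with a median of 1.07, though only Ift43 and Ift140 had intervals above 1. Ttc21b, an IFT-A subunit that is not among the members, had a ratio of 0.905 (0.830 to 0.985). Of the 8 BBSome genes only Bbs9 had a ratio above 1, and the class median was 0.933. None of the 4 membrane regulators did, with a median of 0.901. With deposited TPM, 5 of the BBSome genes, 2 of the membrane regulators and all 5 IFT-A members lay above 1. With spike-in totals all members did. Deposited TPM raised the members' ratios by a median of 0.097 on the log2 scale, and spike-in totals raised every ratio. IFT-A ratios already above 1 could not fall below it with spike-in totals, so that scaling does not test their direction. With 1 library for each replicate these differences have no replicate behind them, and the meningeal, ganglion and endothelial markers above differed between the same libraries.

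**Figure D3:**
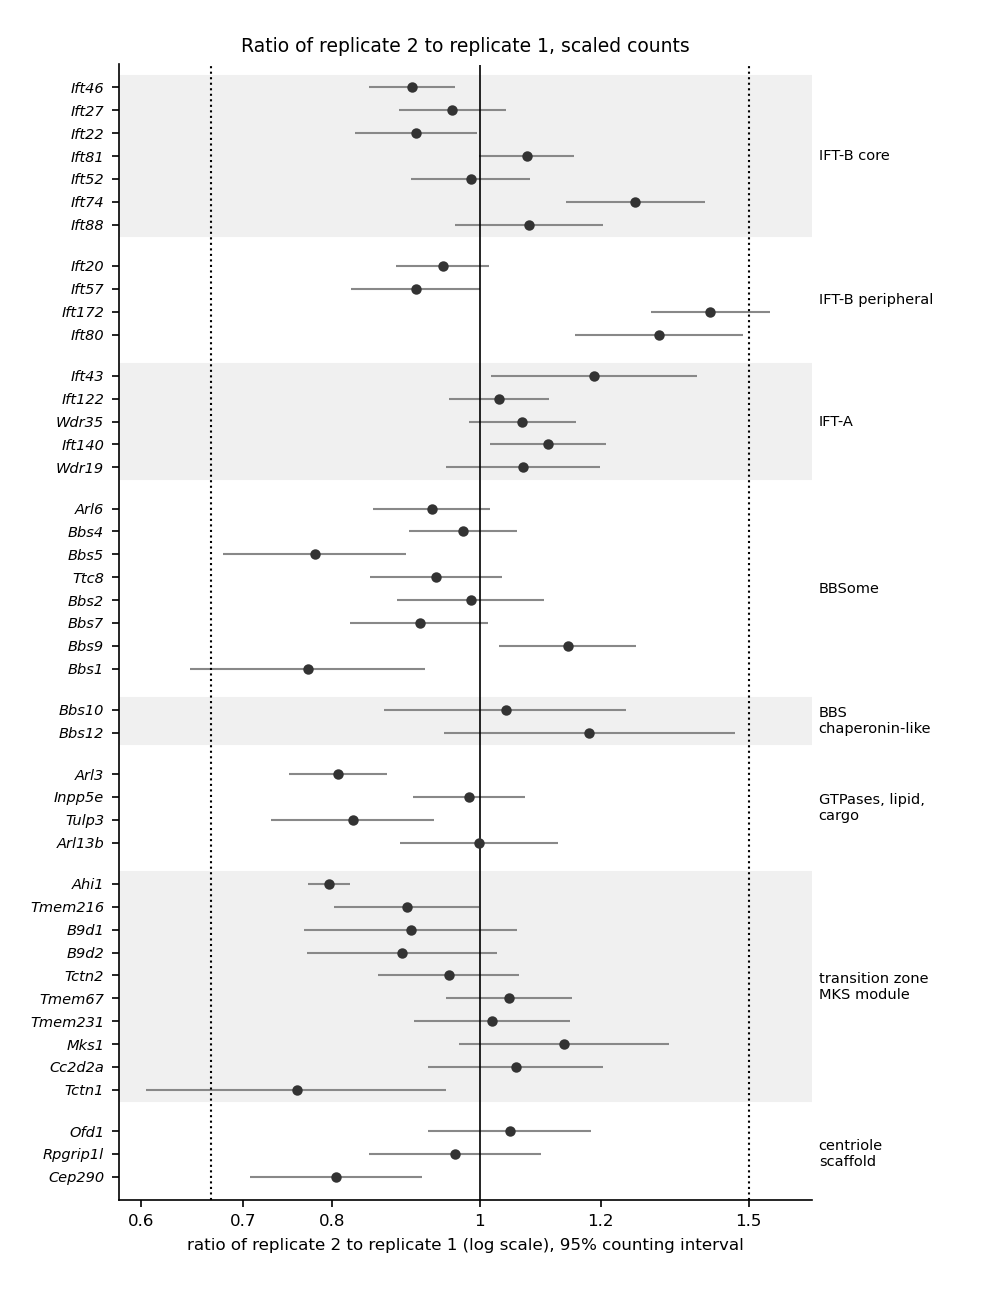
Ratio of replicate 2 to replicate 1 in scaled counts (log scale) for the 43 genes by class, with 95% counting intervals, a line at 1 and dotted lines at 1.5-fold either way. Every point lies between the dotted lines with this TMM scaling, and the IFT-A points all lie right of 1.

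Partners outside the 43 genes were read from separate lists. The anterograde and retrograde motors of IFT, kinesin-2 and dynein-2, were represented by 10 genes, all at 1 TPM or more in both libraries. Kif3a, a motor subunit, had 213 TPM in replicate 2 and 219.5 TPM in replicate 1, and Kifap3, its adaptor, had 130 TPM in replicate 2 and 141 TPM in replicate 1. In each library both lay above every IFT member, and both proteins also serve axonal transport. The motors' median ratio was 0.888, with none 1.5-fold apart. Of 8 other IFT subunits, 7 reached 1 TPM in both libraries. Hspb11 led them with 37.0 TPM in replicate 2 and 35.8 TPM in replicate 1, and Cluap1 had 33.2 TPM in replicate 2 and 36.9 TPM in replicate 1. Ttc30a2, a near copy of Ttc30a1, had 1.47 TPM in replicate 2 and 0.94 TPM in replicate 1, and reads of such copies may be split between them. All 4 other BBS genes and all 15 other transition zone and inversin genes reached 1 TPM in both libraries, with none 1.5-fold apart. Lztfl1, which controls BBSome traffic, had 39.8 TPM in replicate 2 and 47.0 TPM in replicate 1, and Bbip1, a small BBSome subunit, had 42.5 TPM in replicate 2 and 42.3 TPM in replicate 1. Iqcb1, a partner of Cep290, had 54.2 TPM in replicate 2 and 60.6 TPM in replicate 1, and Rpgrip1, a relative of Rpgrip1l, had 37.97 TPM in replicate 2 and 33 TPM in replicate 1. These levels lie within the range of the members. All 6 genes of lipid-modified cargo release were expressed, led by Arl2, a relative of Arl3, with 85.3 TPM in replicate 2 and 88.6 TPM in replicate 1. Pde6d, a carrier of prenylated cargo that Arl3 unloads, had 75.9 TPM in replicate 2 and 77.2 TPM in replicate 1. Arl2bp, which binds Arl2, was the only gene of that list past 1.5-fold, with 86.8 TPM in replicate 2 and 50.1 TPM in replicate 1 and a ratio of 1.62 (1.52 to 1.72).

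Genes that receive Hedgehog signal at the cilium differed more between the libraries. Of 13, 6 passed the 1.5-fold limit, each with replicate 2 higher, and the median ratio was 1.34. Of all genes averaging 10 counts or more, 10.7% passed it with replicate 2 higher. The highest were Sufu, an inhibitor of Gli factors, with 19.9 TPM in replicate 2 and 15.3 TPM in replicate 1, and Ptch1, the receptor, with 17.2 TPM in replicate 2 and 16.1 TPM in replicate 1. Smo, the receptor component that enters the cilium on signalling, had 11.4 TPM in replicate 2 and 6.73 TPM in replicate 1, a ratio of 1.58 (1.40 to 1.78). Gli1, a target of the pathway, had 1.2 TPM in replicate 2 and 0.57 TPM in replicate 1, a ratio of 1.96 (1.32 to 3.0) from 64 counts in replicate 2 and 41 counts in replicate 1. Gpr161 was the only 1 of the 13 with a ratio below 1, at 0.757 (0.655 to 0.873). Median ratios in the same libraries were 1.41 for cell cycle, 1.07 for progenitor and 0.892 for neuronal genes. They were 2.12 for endothelial and 18.5 for meningeal and fibroblast genes. For dorsal root ganglion genes the median was 30.8. The part of any of these cell populations in the Hedgehog genes was not tested.

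**Figure D4:**
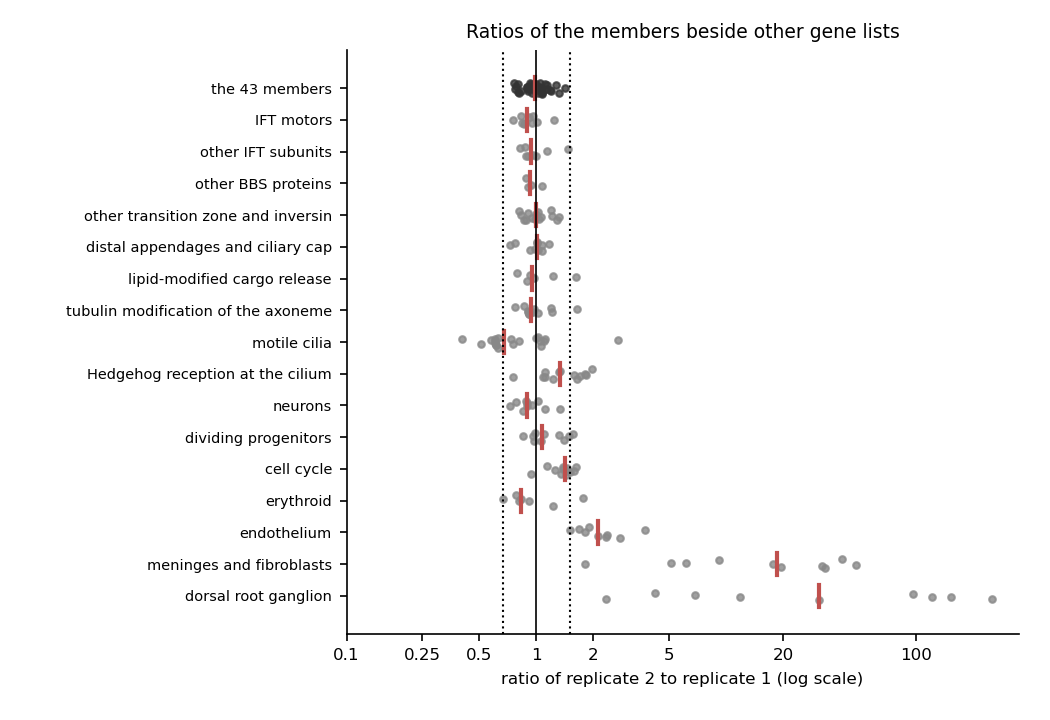
Ratio of replicate 2 to replicate 1 in scaled counts (log scale) for the members and for other lists, 1 point a gene averaging 10 counts or more, with red bars at list medians and dotted lines at 1.5-fold. With TMM scaling the 43 members stay between the dotted lines, while the medians of the ganglion and meningeal lists are 30.8 and 18.5.

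The 43 genes had 192 transcripts in the files, and 102 of them reached 1 TPM in both libraries. For 13 members there was only 1 transcript. In 31 members the same transcript took at least 50% of the gene TPM in both libraries. Among the 30 members with more than 1 transcript the share was 60%, against 68.0% of 9533 expressed protein-coding genes with more than 1 transcript. The leading transcript differed between the libraries in 2 of these 30 members (6.67%), against 11.0% of those genes. Bbs9 had the most divided output, with its leading transcript at 28.6% in replicate 2 and 30.5% in replicate 1.

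The leader changed in Wdr35 and Cc2d2a. Wdr35 (chr12:8973892-9028847), an IFT-A subunit, has a pair of nearly equal coding transcripts. Wdr35-202 took 46.7% of its TPM in replicate 2 and 37.1% in replicate 1, and Wdr35-201 took 44.4% in replicate 2 and 53.1% in replicate 1. The deposited posterior spreads of the Wdr35-202 counts were 76.9 in replicate 2 and 103 in replicate 1, on counts of 523 in replicate 2 and 493 in replicate 1. Cc2d2a (chr5:43662346-43740972), a coiled-coil protein of the MKS module, was led by the coding Cc2d2a-202 in replicate 2, at 32.1%, against 15.8% in replicate 1. In replicate 1 it was led by the retained-intron transcript Cc2d2a-204, at 34.8%, against 19.5% in replicate 2. That transcript is 1194 bases long and held 27.1 counts in replicate 2 and 61.3 counts in replicate 1. In reads, the full-length coding Cc2d2a-201 led in both libraries, with 190 counts in replicate 2 and 294 counts in replicate 1. Tctn2, a tectonic, was led in both libraries by Tctn2-207, listed as a processed transcript, at 71.5% in replicate 2 and 70.8% in replicate 1. The annotation used for transcript types lists none of the Tctn2 transcripts as protein-coding, so this says nothing of the share of coding RNA.

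A sizeable part of the TPM of several members came from transcripts that are not listed as protein-coding. Among the 30 members with more than 1 transcript, that part was at least 20% in both libraries in 40%. The share was 29.9% of expressed protein-coding genes with more than 1 transcript. Without Tctn2 it was 11 of 29 members (37.9%). Genes with no transcript listed as coding were not taken out of the expressed genes, here or in the medians below. The median part was 13.1% in replicate 2 and 11.2% in replicate 1 for these 29 members, against 8.11% in replicate 2 and 9.40% in replicate 1 for those genes. In Tctn1 it reached 59.7% in replicate 2 and 54.6% in replicate 1. In B9d1, a member of the B9 domain family, it was 48.7% in replicate 2 and 46.5% in replicate 1. Ift88-203, listed under nonsense-mediated decay, took 16.2% of Ift88 TPM in replicate 2 and 33.8% in replicate 1, on 18.1 counts in replicate 2 and 54.3 counts in replicate 1. Counted in reads rather than TPM, the median part was 6.09% in replicate 2 and 6.61% in replicate 1 for the same members, against 3.03% in replicate 2 and 3.58% in replicate 1 for those genes.

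**Figure D5:**
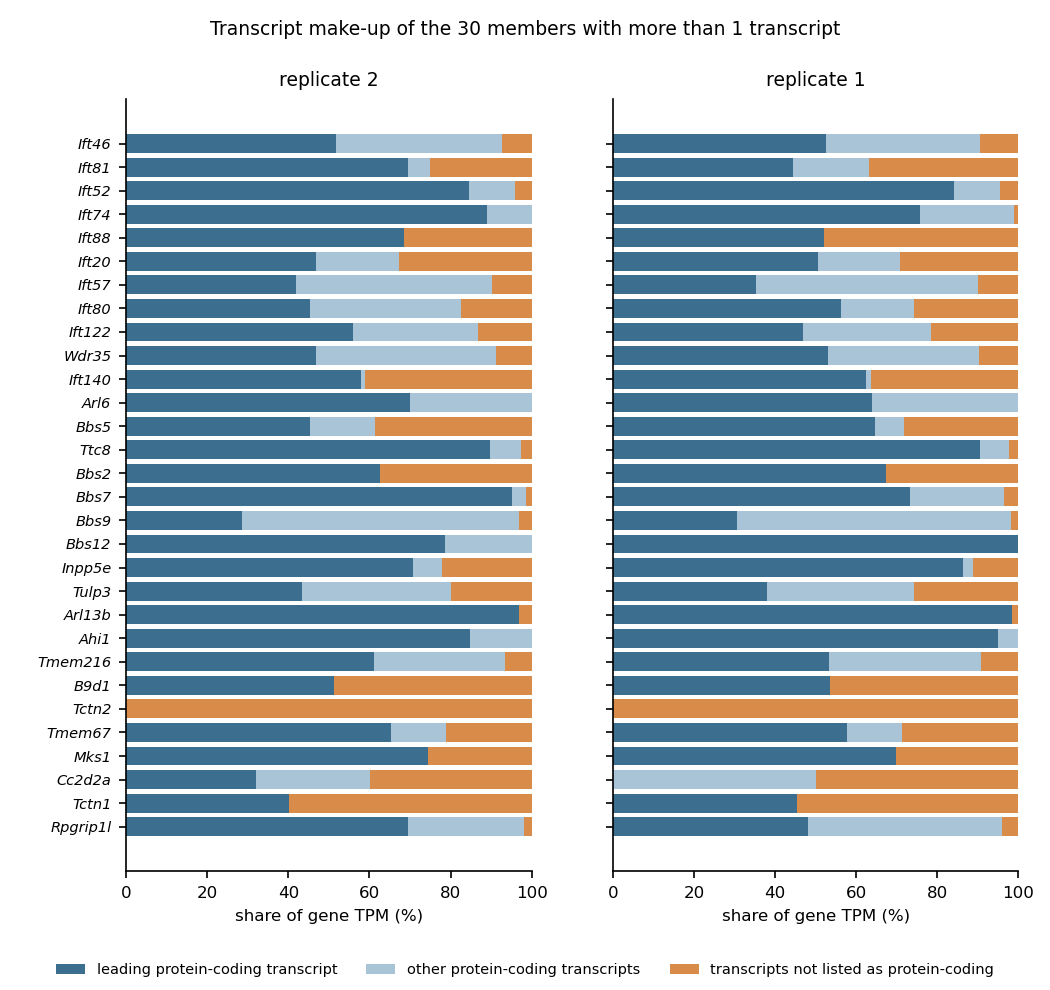
Share of gene TPM (%) in the leading transcript where it is protein-coding, in other protein-coding transcripts and in transcripts not listed as protein-coding, for the 30 members with more than 1 transcript, in replicate 2 (left) and replicate 1 (right). Tctn2 has no transcript listed as coding, and Cc2d2a has no dark bar in replicate 1 because its leader there is a retained-intron transcript.

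Short transcripts carried much TPM on few reads, and this set some gene levels. Ift46-209, 229 bases long, gave 29.4% of Ift46 TPM in replicate 2 and 26.9% in replicate 1, from 73.4 counts in replicate 2 and 94.2 counts in replicate 1. Ift46-202, the transcript with most reads, alone had 66.5 TPM in replicate 2 and 69.8 TPM in replicate 1. By the transcript with most reads, Arl3 led the members at a mean of 117 TPM, before Ahi1 at 94.1, Ift27 at 76.6 and Ift46 at 68.1 TPM. Rpgrip1l-202, 404 bases long, had 1.59 TPM from 7.27 counts in replicate 2 and 3.57 TPM from 22.1 counts in replicate 1. The full-length Rpgrip1l-201 had 3.87 TPM in replicate 2 and 3.58 TPM in replicate 1, so the higher gene TPM of Rpgrip1l in replicate 1 lay in the short transcript. Ift81 likewise had a lower gene TPM in replicate 2 but a count ratio of 1.07 (0.999 to 1.15). Its main transcript Ift81-201 had 29.5 TPM in replicate 2 and 22.4 TPM in replicate 1. In all, 14 members had TPM and count ratios on opposite sides of 1, and the share among all genes was not computed. Deposited TPM raised the members' log2 ratios by a median of 0.097, so a ratio near 1 can change side by that shift alone.

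Members lay on 17 chromosomes, and 8 had a protein-coding neighbour that starts within 1000 bases on the opposite strand and points away (18.6%), against 9.83% of the expressed protein-coding genes. Ift20 starts 29 bases from Tnfaip1, which had 45.0 TPM in replicate 2 and 39.0 TPM in replicate 1. Ift46 starts 63 bases from Arcn1, a coat protein of Golgi vesicles, which had 141 TPM in replicate 2 and 115 TPM in replicate 1. The other 6 pairs were Arl3 with Sfxn2, Ift122 with Mbd4, Ift140 with Cramp1l, Ift80 with Smc4, Rpgrip1l with Fto and Cep290 with Tmtc3. The partners' levels were not alike in every pair, since Fto had 137 TPM in replicate 2 and 114 TPM in replicate 1 beside the low Rpgrip1l. Exons of 11 members overlap another gene, among them Tmem216 with Cpsf7, Inpp5e with Pmpca and Bbs4 with Adpgk on the opposite strand. As the strand setting of the counting is not given, their levels are uncertain to that extent. The deposited gene-level posterior spread was above 0 in 7 members and at most 2.23% of the count, in Tctn1.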

How the data were processed

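Neural tube RNA was measured in 2 libraries of 1 group, from small RNA amounts with spike-in RNA added, after mirVana extraction and a Smart-seq protocol, per the labels. The build was mm10 and the gene models GENCODE release 4, per texts that accompany the deposited files. Which aligner and quantifier were run, and whether strand was used, is not given in the sources used here. As deposited by the authors, expected counts are read estimates for each gene or transcript before any normalisation, per the file headers. The authors' TPM values have the same sum in each library over all rows. The authors' FPKM values correct for length and for depth, per the file headers. Percent columns, as deposited, hold each transcript's share of gene TPM, and the deposited score columns hold posterior standard deviations of counts, per the file headers.

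GENCODE release 21 (GRCm38, which is mm10) gave symbols, types and 1-based coordinates through identifiers stripped of their version, and 42462 of 43346 gene rows matched. A transcript absent from release 21 counts as not protein-coding. Rows that name no gene (spike-ins, phiX) held 2.29% of counts in replicate 2 and 3.31% in replicate 1 and stayed out of library sizes. Counts were rounded. Ratios used TMM sizes from edgeR 4.0.16 under R 4.3.3, adding 0.5 to each count. Intervals are exact (Clopper-Pearson, 95%) and cover counting error only, since amplified reads are not independent molecules. The ratio step was tested on simulated data with changes far larger than any among the members, so that says little about differences as small as theirs. Medians, shares and correlations used Python 3.11.15 with pandas 2.3.3 and SciPy 1.17.1. Alternatives used DESeq2 1.42.0 size factors, total counts, spike-in totals, deposited TPM, other thresholds and priors, each library alone and other motif rules. With 1 group there was no test, and each SD is over 2 libraries. These came from pups of different females, so technical, dissection and animal differences cannot be told apart in the spread.

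The members, the 17 other lists (178 entries, 1 without a row) and the rules were chosen with earlier results of these data known. By rule, the text names the 2 highest and the lowest members of each class, every member past 1.5-fold or under 1 TPM (there were none) and every member whose leading transcript changes or is not protein-coding. Other cilium lists give their 2 highest members and any at least 2-fold apart. Genes named outside that rule were chosen after their values were seen.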

Additional observations from a re-analysis of the deposited data

How the results depend on the processing

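All 43 members stayed at or above 1 unit in both libraries by TPM, FPKM and posterior mean TPM, and in each library alone, while 38 reached 5 TPM in both. The count of members 1.5-fold apart was 0 under TMM, DESeq2 size factors, total counts and posterior mean counts. It was also 0 with TMM without the genes that differ (an alternative added after the data were seen). A prior count of 5, either count filter and a 2-fold limit gave 0 too, but could not have raised the count. The filters remove no member, and a higher prior or limit can only lower it. The count was 17 with spike-in totals, all higher in replicate 2, and 1 with deposited TPM (Ift172, at 1.51). The share of all genes past 1.5-fold was not computed under either of these scalings. Spike-in totals moved every ratio by 0.55 on the log2 scale, to a median of 0.52, with all 43 above 1. This shift follows from their share of counts, 2.29% in replicate 2 and 3.31% in replicate 1, and relative to it the members' order is the same. With deposited TPM, 28 members lay above 1, against 18 by counts. Of the 43 single ratios, 12 left their counting interval with deposited TPM, 43 with spike-in totals, and none with DESeq2 factors or total counts. The median level of 16.9 TPM was 17.2 to 17.7 TPM in a single library, 9.95 in FPKM and 12.0 TPM for the transcript with most reads (added after the data were seen). Members with a dominant transcript numbered 31, from 23 at a limit of 67% to 40 at 33%, 28 by posterior mean TPM, and 34 to 35 in a single library. The leading transcript was shared in 41 members, and in 36 at 5 TPM or more. X-box matches numbered 12, 25 with 1 mismatch allowed (64.1%, against 42.4% of expressed genes), and 6 before the start alone, a window added after the data were seen. RefSeq symbols gave the same 43 members. No paired analysis was possible because there is 1 group. Depth limits precision most where reads are few: the interval of Tctn1 ran from 0.604 to 0.95.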

Other observations

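Genes of motile cilia, which ependymal cells of the later spinal canal carry, were low beside the primary cilium genes. Of 21, 14 reached 1 TPM in both libraries, and the median was 1.94 TPM in replicate 2 and 2.64 TPM in replicate 1. Rsph9, a radial spoke protein, led with 25.4 TPM in replicate 2 and 37.1 TPM in replicate 1, followed by Spag6l of the central apparatus, with 12.1 TPM in replicate 2 and 15.8 TPM in replicate 1. Of the 20 with a mean count of at least 10, 10 were at least 1.5-fold higher in replicate 1 and 1 was higher in replicate 2, with a median ratio of 0.679. That gene was Dnaic2, an outer arm dynein chain, with 67 counts in replicate 2 and 31 counts in replicate 1. Of all genes averaging 10 counts or more, 8.53% passed 1.5-fold with replicate 1 higher and 10.7% with replicate 2 higher. Hydin, of the central apparatus, had 11 counts in replicate 2 and 35 counts in replicate 1. Spag6, a near copy of Spag6l, had 6.66 counts in replicate 2 and 1.07 counts in replicate 1, and reads of the pair may be split between them. Foxj1, the transcription factor of motile ciliated cells, had 154 counts in replicate 2 and 294 counts in replicate 1, a ratio of 0.664 (95% counting interval 0.542 to 0.809). Gmnc, which acts before Foxj1 in multiciliated cells, had 19 counts in replicate 2 and 85 counts in replicate 1, a ratio of 0.288 (0.162 to 0.470). Mcidas, a related factor of multiciliated cells, had 2 counts in replicate 2 and 4 counts in replicate 1. The IFT and transition zone genes, which motile and primary cilia share, had a median ratio near 1 in the same libraries. There was no test of either difference, as each replicate is 1 library.

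Of 13 enzymes that modify axonemal tubulin, 12 reached 1 TPM in both libraries, with a median of 13.8 TPM in replicate 2 and 13.7 TPM in replicate 1. The highest was Atat1, which acetylates alpha-tubulin, with 365 TPM in replicate 2 and 380 TPM in replicate 1, above each of the 43 cilium genes. Agtpbp1, a deglutamylase, had 71.2 TPM in replicate 2 and 81.6 TPM in replicate 1. Both also act on neuronal microtubules. Ttll6, a polyglutamylase of cilia, had 1 count in replicate 2 and 14 counts in replicate 1. Of the distal appendage and capping genes, all 10 reached 1 TPM in both libraries, led by Odf2, with 55.1 TPM in replicate 2 and 53.98 TPM in replicate 1, and Fbf1, with 35 TPM in replicate 2 and 33.1 TPM in replicate 1. None of these 10 was 1.5-fold apart.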
